A study of Homo sapiens with 12 samples.

Results

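The 10 genes described here handle cellular iron: its uptake on transferrin (TFRC, TF, HFE and STEAP3), its storage in ferritin (FTH1 and FTL), the lysosomal breakdown of ferritin (NCOA4) and the sensing of iron (IREB2, ACO1 and FBXL5). They were taken by gene symbol from a list, by a rule that uses no measured value, and all 10 were found among the 28278 gene rows of the count matrix. Each was compared between cancer cells passaged through repeated hydroxychloroquine (HCQ) exposure and control cells of the same line. A further 78 genes of iron transport, iron delivery, heme and iron-sulfur metabolism were compared in the same way. The members and the further lists were chosen with earlier results of these data known.

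Most cells take up iron as transferrin, which the transferrin receptor TFRC carries into acidified endosomes, where the low pH frees the iron and STEAP3 reduces it. Surplus iron is held in ferritin, a shell of FTH1 and FTL chains, and NCOA4 delivers ferritin to the lysosome, whose acidity releases the iron again. HCQ is a weak base that collects in lysosomes and raises their pH, so the question was whether cells that had lived through it differed in these transcripts. When iron is scarce, IREB2 (IRP2) and ACO1 (IRP1) bind hairpins called iron-responsive elements (IREs), which blocks translation of ferritin mRNA and stabilises TFRC mRNA. FBXL5 is the ubiquitin ligase subunit that removes IREB2 when iron is plentiful, and HFE is a cell surface partner of the transferrin receptor.

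OVCAR3 is an ovarian cancer line and CCL218 a colorectal cancer line. HCQ-evolved cells of each line received 15 pulses of 48 h at 20 to 50 µM HCQ, each followed by regrowth in fresh medium, and were sampled at passage 15 after 7 days without drug. Control cells were passaged in parallel without HCQ and sampled at passage 19, so passage and treatment cannot be told apart. Each group had 3 polyA RNA libraries, labelled L, M and R, letters taken here as plate positions though the labels do not explain them. Each library was pooled from 31 wells by position on 1 plate of 93 wells. The p-values therefore measure the spread between pools of 1 plate. In such pools a change in every cell and a change in the share of wells or cells that express a gene cannot be told apart.

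The 12 libraries held 31147822 to 59965861 counts. Levels are given as CPM, the counts per 1000000 counts of the library after scaling by the trimmed mean of M values (TMM). Both lines expressed intestinal markers strongly. These 10 genes summed to 975 to 1192 CPM in control and 245 to 703 CPM in HCQ-evolved OVCAR3, and to 1231 to 1686 CPM and 1302 to 1356 CPM in CCL218, while the 7 ovarian markers summed to 31.4 to 54.1 CPM in control and 34.0 to 63.9 CPM in HCQ-evolved OVCAR3, and to 14.1 to 30.5 CPM and 17.04 to 19.6 CPM in CCL218. The ovarian sums were thus higher, and in control pools the intestinal sums lower, in the line labelled ovarian, yet intestinal markers far exceeded ovarian ones in both lines. Among the defining markers, SOX17 was at 0 in all pools, EMX2 and the intestinal KRT20 were at or near 0, and PAX8 lay between 6.40 and 14.9 CPM in every pool. The 6 stroma and blood markers, with COL1A2 and PTPRC at or near 0, summed to 17.3 to 22.6 CPM in control and 30.6 to 44.2 CPM in HCQ-evolved OVCAR3, and to 15.4 to 16.95 CPM and 50.8 to 55.8 CPM in CCL218. Most of this was CD68, a lysosomal glycoprotein known as a macrophage marker, whose mean went from 15.0 to 35.7 CPM in OVCAR3 and from 12.7 to 49.96 CPM in CCL218, and its part in the iron gene results was not tested. Some libraries stood apart from their group. The spread of log2 differences between pools was 0.200 for HCQ-evolved OVCAR3 L against M but 0.676 and 0.731 for R against these, and in control CCL218 it was 0.219 for M against R but 0.648 and 0.584 for L against these. Results that move most with these pools are given with and without them, and the part of this spread in the results was not tested. Between group means the same spread was 0.461 for control OVCAR3 against control CCL218. For HCQ-evolved against control it was 0.507 in OVCAR3 and 0.46 in CCL218. The line labels were used as given, and whether the libraries come from different lines was not tested.

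The transcripts of 4 members carried a sequence of IRE form in the GENCODE 44 canonical transcript (hg38). The form searched on the mRNA strand was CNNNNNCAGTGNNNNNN, a bulged C, a 5-base upper stem, a loop of CAGTG plus a base other than G, and 5 bases that pair with the stem, G with T pairs allowed. It occurred in 190 of 20018 canonical mRNAs of protein-coding genes (0.949%), in 0.0567% of 5′ UTRs and in 0.502% of 3′ UTRs. The sites below are shown because IRPs act on the ferritin mRNAs and on TFRC mRNA in opposite ways, with 1 site in the 5′ UTR of each ferritin chain and 4 in the 3′ UTR of TFRC. Capitals mark the bulged C and the 6-base loop, and each sequence is 29 bases, 5′ to 3′ on the mRNA strand.
FTH1, 5′ UTR in exon 1, chr11:61967574-61967602 (-): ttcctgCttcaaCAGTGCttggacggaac
FTL, 5′ UTR in exon 1, chr19:48965335-48965363 (+): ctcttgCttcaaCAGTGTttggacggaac
TFRC site 1, 3′ UTR in exon 19, chr3:196050979-196051007 (-): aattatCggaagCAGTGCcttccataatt
TFRC site 2, 3′ UTR in exon 19, chr3:196050575-196050603 (-): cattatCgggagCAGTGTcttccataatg
TFRC site 3, 3′ UTR in exon 19, chr3:196050510-196050538 (-): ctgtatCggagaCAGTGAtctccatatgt
TFRC site 4, 3′ UTR in exon 19, chr3:196050463-196050491 (-): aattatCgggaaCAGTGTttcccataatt
TF held 1 match in its 3′ UTR and the other 6 members held none in these transcripts, which says only that these letters are not there. The counts are of RNA, so the block on ferritin translation is not read by them, while a change in the stability of TFRC mRNA would be.

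Per length of transcript, ferritin was by far the most abundant of the measured members. In control OVCAR3 the mean level was 2543 CPM per kb for FTL and 882 CPM per kb for FTH1, against 46.7 for NCOA4, 28.98 for TFRC, 14.3 for IREB2, 7.68 for FBXL5, 5.85 for ACO1, 2.09 for HFE and 2.08 for STEAP3. Control CCL218 gave the same order, from 1967 CPM per kb for FTL down to 1.77 for STEAP3. In the HCQ-evolved groups TFRC (43.2 in OVCAR3 and 64.1 CPM per kb in CCL218) stood just above NCOA4 (42.7 and 56.6). Over the 3 pools of a group, the ranges of TFRC and NCOA4 overlapped in all 4 groups, those of TFRC and IREB2 overlapped in both control groups, and those of HFE and STEAP3 overlapped in both control groups but not in the HCQ-evolved groups. All other neighbours in the order were apart. FTL exceeded FTH1 per length 1.88-fold to 3.93-fold in single pools. FTH1 and FTL have 25 and 16 processed or other pseudogene copies in GENCODE 44, of which 1 each had a row in the matrix with at most 14 counts, so reads shared with the copies make the ferritin levels uncertain. Duplicate removal before counting acts most on abundant, short transcripts such as these, and its effect on the levels was not tested.

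**Figure D1:**
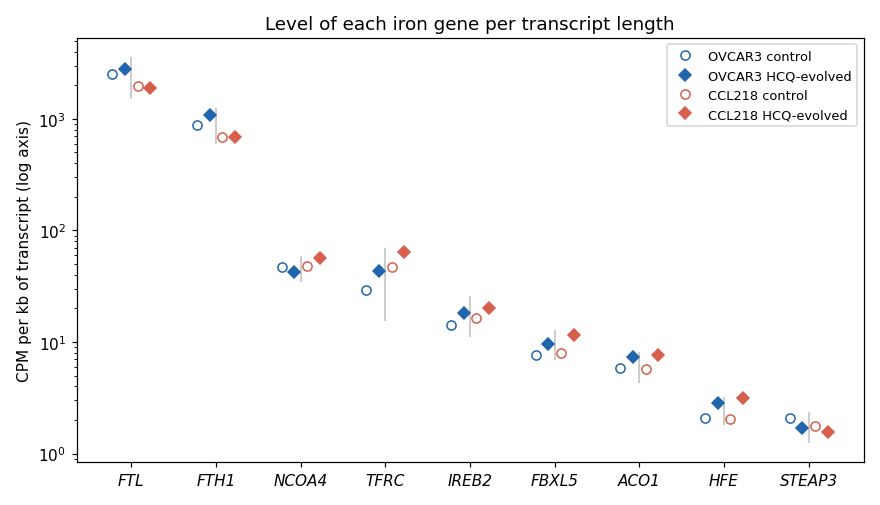
Mean level of each measured iron gene per kb of its canonical transcript (CPM per kb, log axis) in the 4 groups, with a grey line from the lowest to the highest of the 12 pools. FTL and FTH1 lie at 593 CPM per kb or more in every pool, and all other genes at 69.7 CPM per kb or less.

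HFE was the member that rose in HCQ-evolved CCL218, by 1.55-fold, and HFE and FBXL5 rose when both lines were fitted together, by 1.46-fold and 1.34-fold. No member passed the test in OVCAR3. The ferritin chains and NCOA4 did not pass in any comparison, nor did TFRC, whose fold change had the largest standard error of the 9. By edgeR's quasi-likelihood test with Benjamini-Hochberg adjustment over all genes, 0 of the 9 members tested passed in OVCAR3, where 1.86% of 12204 genes did. HFE alone had an unadjusted p under 0.05 there, and DESeq2 and limma voom also called 0 members. In CCL218 1 of 9 passed, where 6.46% of 12241 genes did (3.82% higher and 2.64% lower). Over both lines 2 of 9 passed, where 16.2% of 12613 genes did (8.03% higher and 8.17% lower). The median log2 fold change of the 9 members was 0.33 in OVCAR3, 0.30 in CCL218 and 0.33 over both lines, beside 0.02, -0.02 and -0.02 for all genes tested. TF was below the filter of 1 CPM in 3 libraries and was not tested.

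**Figure D2:**
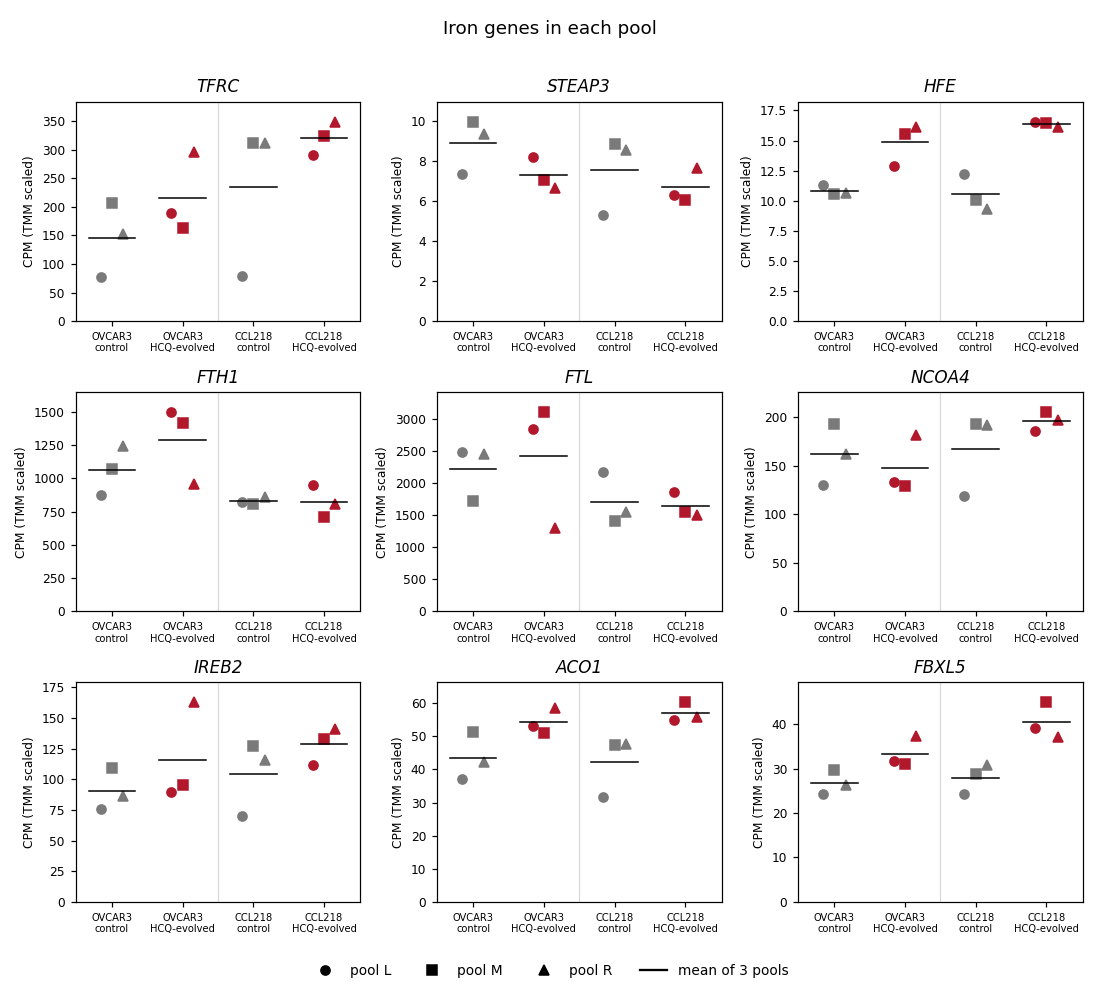
TMM-scaled CPM of the 9 measured iron genes in each of the 12 pools (circles L, squares M, triangles R, grey control, red HCQ-evolved), with a black line at the mean of 3 pools. HFE and FBXL5 are higher in all 3 HCQ-evolved pools than in all 3 control pools of each line, and control L is the lowest TFRC pool in both lines.

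TFRC showed the widest spread among the uptake genes. In OVCAR3 it was at 76.6 (L), 207 (M) and 152 CPM (R) in control pools and at 190, 164 and 296 CPM in HCQ-evolved pools. CCL218 held it at 78.8, 313 and 311 CPM in control pools and at 290, 325 and 350 CPM in HCQ-evolved pools. Control L was thus the lowest pool in each line, and the groups overlapped in both. The log2 fold change of TFRC was 0.59 ± 0.40 (SE, 95% interval -0.33 to 1.51, adjusted p = 0.519) in OVCAR3 and 0.45 ± 0.46 (-0.63 to 1.53, adjusted p = 0.558) in CCL218. It was 0.03 in CCL218 without control L, 0.27 in OVCAR3 without control L and 0.28 in OVCAR3 without HCQ-evolved R. Over both lines it was 0.52 (-0.17 to 1.21, adjusted p = 0.284), and 0.15 without control L of either line. Control L also had the most genes detected of its line, 18992 in OVCAR3 and 18568 in CCL218. The rank correlation across genes of transcript length with deviation from the mean of the line's own pools was -0.505 in control L of CCL218. This was the lowest of its line. In control L of OVCAR3 it was -0.354, and 3 other pools were lower. The part of these in the TFRC values was not tested.

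The ligand itself was hardly detected. TF, which liver cells secrete and serum supplies to cultured cells, had between 0 and 13 counts in every pool, with 0 counts in 3 of the 12 pools. A count of 0 allows up to 3 counts if counts are independent. Of the entries of 1 to 4 counts in the matrix 78.9% were even, so the bound may be too low here. No fold was computed for it.

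STEAP3, the endosomal ferrireductase, did not pass in either line. It was at 7.32, 9.95 and 9.32 CPM in control and 8.19, 7.02 and 6.66 CPM in HCQ-evolved OVCAR3, and at 5.28, 8.86 and 8.51 CPM in control and 6.30, 6.03 and 7.66 CPM in HCQ-evolved CCL218. The groups overlapped in both lines because control L was the lowest control pool. Its log2 fold change was -0.27 ± 0.22 (adjusted p = 0.605) in OVCAR3 and -0.18 ± 0.23 (adjusted p = 0.635) in CCL218. Without control L it was -0.41 in OVCAR3 (adjusted p = 0.545) and -0.39 in CCL218 (adjusted p = 0.0781). Over both lines it was -0.23 (-0.56 to 0.09, adjusted p = 0.308), and of 20 alternatives it passed in 1, without control L of both lines, at -0.39 with an adjusted p of 0.0491.

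HFE was higher in every HCQ-evolved pool than in every control pool of its line. In OVCAR3 it was at 11.3, 10.5 and 10.6 CPM in control pools and at 12.9, 15.5 and 16.1 CPM in HCQ-evolved pools, a log2 fold change of 0.47 ± 0.19 (SE) with an adjusted p of 0.257. In CCL218 it was at 12.2, 10.1 and 9.28 CPM in control pools and at 16.6, 16.4 and 16.1 CPM in HCQ-evolved pools, a log2 fold change of 0.63 ± 0.15 with an adjusted p of 0.0487. The pools of the groups did not overlap in either line, and over both lines the log2 fold change was 0.55 (95% interval 0.32 to 0.78, adjusted p = 0.00538). The CCL218 call sat at the threshold. With a smooth trend of transcript length and GC content removed from each library, the log2 fold change was 0.48 (adjusted p = 0.168) in CCL218 and 0.41 (adjusted p = 0.0587) over both lines. The call in CCL218 also failed without control M or R or any 1 HCQ-evolved pool, with adjusted p from 0.0966 to 0.219, and held without control L at 0.00121. In the GENCODE 44 annotation a histone gene on the opposite strand, H2BC4, overlaps HFE, and whether counting used strand is not given in the sources used here. H2BC4 had 45 to 161 counts against 335 to 965 for HFE, and its log2 fold change was -1.07 in OVCAR3 (adjusted p = 0.111) and -0.28 in CCL218 (adjusted p = 0.634).

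Both ferritin chains, which carry an IRE in the 5′ UTR, kept overlapping pools in each line. FTH1, the chain with ferroxidase activity, was at 873, 1067 and 1243 CPM in control and 1499, 1419 and 956 CPM in HCQ-evolved OVCAR3. CCL218 held it at 823, 807 and 861 CPM in control and 953, 713 and 806 CPM in HCQ-evolved pools. HCQ-evolved OVCAR3 L and M were thus above all controls while R was not, and in CCL218 the means were 830 ± 27.4 and 824 ± 121 CPM (SD, n = 3). The log2 fold change of FTH1 was 0.30 (95% interval -0.29 to 0.88, adjusted p = 0.617) in OVCAR3 and -0.01 (-0.36 to 0.33, adjusted p = 0.958) in CCL218. Without HCQ-evolved R it was 0.46 in OVCAR3 (adjusted p = 0.298).

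FTL, the chain that promotes mineralisation of the core, also kept overlapping groups. It was at 2485, 1714 and 2446 CPM in control and 2849, 3109 and 1303 CPM in HCQ-evolved OVCAR3. In CCL218 it was at 2168, 1414 and 1557 CPM in control and 1867, 1550 and 1496 CPM in HCQ-evolved pools. HCQ-evolved OVCAR3 R was the lowest of all 12 pools and M the highest. The log2 fold change was 0.14 (-0.67 to 0.95, adjusted p = 0.884) in OVCAR3, 0.44 without HCQ-evolved R (adjusted p = 0.361), and -0.07 (-0.54 to 0.40, adjusted p = 0.845) in CCL218. In OVCAR3 the upper bounds of both chains lie above 0.63, the estimate for HFE in CCL218, and in CCL218 both lie below it. The same HCQ-evolved R pool held the highest TFRC (296 CPM) and IREB2 (163 CPM) of the OVCAR3 pools. R also differed from L and M in its rank correlation with transcript length, 0.557 against -0.403 and -0.432, and in the intestinal factor CDX2, at 0.803 CPM against 8.26 and 9.72 CPM, and the part of these in the ferritin values was not tested.

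NCOA4, the receptor that carries ferritin into autophagosomes, did not pass in either line. It was at 130, 192 and 162 CPM in control and 133, 129 and 181 CPM in HCQ-evolved OVCAR3, and at 119, 192 and 191 CPM in control and 185, 205 and 197 CPM in HCQ-evolved CCL218. The groups overlapped in both lines, control L again being the lowest pool of CCL218. Its log2 fold change was -0.11 ± 0.23 (adjusted p = 0.863) in OVCAR3 and 0.22 ± 0.20 (adjusted p = 0.506) in CCL218. Without HCQ-evolved R it was -0.30 in OVCAR3, and without control L it was 0.019 in CCL218. Over both lines it was 0.05 (95% interval -0.29 to 0.38, adjusted p = 0.855).

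FBXL5 was the sensing gene whose pools did not overlap in either line. It was at 24.3, 29.7 and 26.3 CPM in control and 31.7, 31.1 and 37.2 CPM in HCQ-evolved OVCAR3, a log2 fold change of 0.33 ± 0.19 with an adjusted p of 0.437. CCL218 pools held 24.4, 28.7 and 30.8 CPM of it in control and 39.0, 44.9 and 37.2 CPM in HCQ-evolved pools, a log2 fold change of 0.53 ± 0.15 with an adjusted p of 0.0801. Plate position was taken as pairing the pools in CCL218. The pools so paired came from separate plates, and control M correlated best with an HCQ-evolved pool of another position. For FBXL5 in CCL218, the fit with position as a block gave 0.53 with an adjusted p of 0.0472. With this block 2 of 9 members (HFE, adjusted p = 0.0273, and FBXL5) passed, where 14.2% of genes did. Over both lines FBXL5 rose by 0.42 on the log2 scale (95% interval 0.19 to 0.66, adjusted p = 0.0187). That call was lost without HCQ-evolved CCL218 M (0.38, adjusted p = 0.0515), without control L of both lines (0.34, adjusted p = 0.0542) and with the block (0.42, adjusted p = 0.0635). The gene on the opposite strand at its end, FAM200B, had log2 fold changes of -0.11 in OVCAR3 and 0.0022 in CCL218.

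ACO1 and IREB2, the IRPs that bind the hairpins shown above, did not pass in either line. ACO1 was at 37.1, 51.4 and 42.1 CPM in control and 53.1, 50.9 and 58.6 CPM in HCQ-evolved OVCAR3. In CCL218 it was at 31.8, 47.4 and 47.6 CPM in control and 54.8, 60.3 and 55.8 CPM in HCQ-evolved pools. The groups overlapped in OVCAR3 and were apart in CCL218, where the log2 fold change was 0.43 ± 0.18 (adjusted p = 0.191). In OVCAR3 it was 0.33 ± 0.20 (adjusted p = 0.466), and over both lines 0.37 (95% interval 0.10 to 0.64, adjusted p = 0.0590). Over both lines ACO1 passed in 4 of 20 alternatives, by DESeq2 (adjusted p = 0.0242), by limma voom (0.0464), with the length and GC trend removed (0.0316) and without control OVCAR3 M (0.0326). In CCL218, ACO1 passed in 1 of 15 alternatives, without both L pools, at 0.28 (adjusted p = 0.0338), and was 0.25 without control L (adjusted p = 0.0689). IREB2 was at 76.1, 110 and 86.1 CPM in control and 89.7, 95.5 and 163 CPM in HCQ-evolved OVCAR3. Its level in CCL218 was 69.8, 128 and 116 CPM in control and 112, 133 and 141 CPM in HCQ-evolved pools. The groups overlapped in both lines, and in OVCAR3 HCQ-evolved R was the only pool above all controls. The log2 fold change of IREB2 was 0.38 ± 0.29 (adjusted p = 0.579) in OVCAR3, 0.03 without HCQ-evolved R, and 0.30 ± 0.23 (adjusted p = 0.452) in CCL218, 0.067 without control L.

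**Figure D3:**
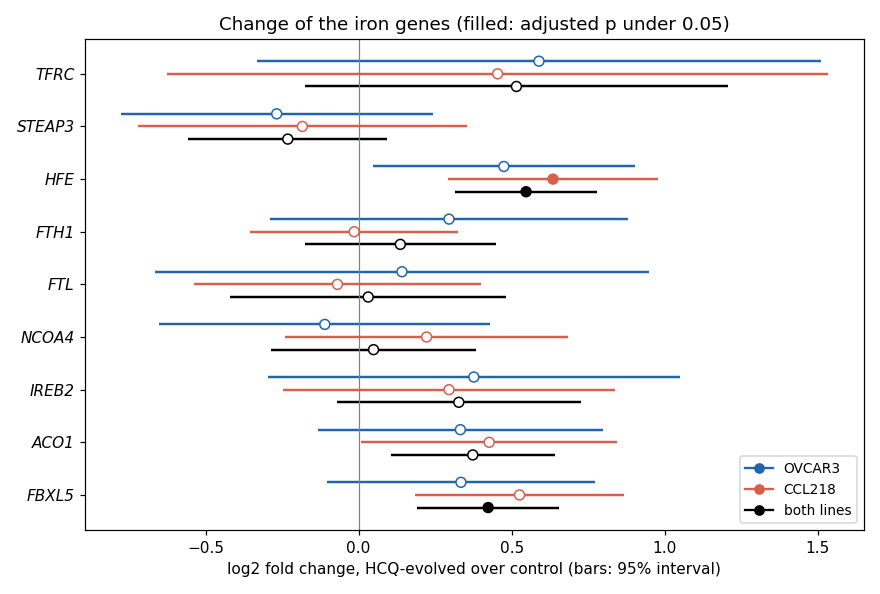
Log2 fold change of each measured iron gene, HCQ-evolved over control, in OVCAR3 (blue), CCL218 (red) and both lines together (black), with 95% intervals and filled points where the adjusted p was under 0.05. HFE is filled in CCL218 and over both lines and FBXL5 over both lines, and TFRC has the widest intervals.

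Counted by overlap of pools, 2 of the 9 members tested (HFE and FBXL5) were higher in every HCQ-evolved pool of OVCAR3, and 0 were lower. Among all genes tested there, 25.7% did not overlap and 13.0% were higher. In CCL218 3 of 9 (HFE, ACO1 and FBXL5) were higher in every HCQ-evolved pool and 0 were lower, where 36.0% of all genes did not overlap and 18.6% were higher. Beside these shares the members' counts are a description and no result of their own.

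The change did not differ detectably between the lines for any member. When the change in OVCAR3 was subtracted from that in CCL218, 0 of 9 members passed, where 0.872% of genes did, and 0 had an unadjusted p under 0.05. The estimates ran from -0.29 for FTH1 (95% interval -0.92 to 0.33) to 0.35 for NCOA4 (-0.32 to 1.02), with adjusted p of at least 0.953. The control pools of the lines did not differ detectably either, with 0 of 9 members called, where 3.42% of genes were, and 0 with an unadjusted p under 0.05. DESeq2 and limma voom called 0 members in both of these comparisons. The largest estimate between controls was TFRC, higher in CCL218 by 0.69 (95% interval -0.35 to 1.73, adjusted p = 0.499), and FTH1, at -0.35 (-0.79 to 0.09, adjusted p = 0.444), was the 1 member of 9 lower in every control pool of CCL218, as 9.13% of all genes were.

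**Figure D4:**
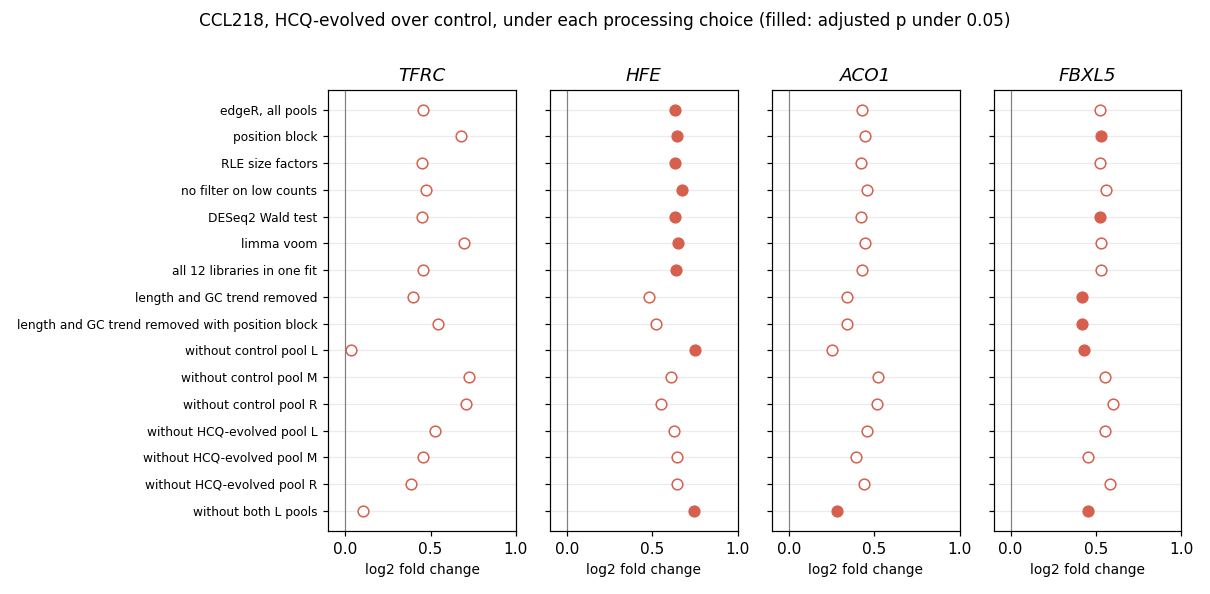
Log2 fold change of TFRC, HFE, ACO1 and FBXL5 in CCL218, HCQ-evolved over control, under each processing choice and with each pool left out in turn, filled where the adjusted p was under 0.05. TFRC moves from 0.45 to 0.03 without control L, HFE stays between 0.48 and 0.75, and FBXL5 between 0.42 and 0.60.

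Which member passed in CCL218 depended on the fit. HFE passed by DESeq2 (adjusted p = 0.000968), limma voom (0.0405) and with 1 fit of all 12 libraries (0.0294). FBXL5 passed by DESeq2 (0.00999) but not by limma voom (0.0707). With the length and GC trend removed the 1 member called was FBXL5, at 0.42 (adjusted p = 0.0216), in place of HFE.

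Outside the 10 members, the largest rise in an iron gene was that of SLC11A2 in CCL218. SLC11A2 (DMT1) is the transporter that moves ferrous iron across the endosomal membrane after STEAP3 has reduced it, and across the apical membrane of enterocytes. It was at 65.7, 91.2 and 80.7 CPM in control and 768, 883 and 873 CPM in HCQ-evolved CCL218, a 10.6-fold rise (log2 fold change 3.41 ± 0.17, adjusted p = 0.00032). In OVCAR3 it was at 83.1, 115 and 98.5 CPM in control and 352, 345 and 114 CPM in HCQ-evolved pools. R lay within the controls while L and M were above them, and the log2 fold change of 1.46 ± 0.41 did not pass (adjusted p = 0.121). Without R it was 1.82 and passed (adjusted p = 0.00243). The difference between the lines was 1.96 (95% interval 0.91 to 3.01, adjusted p = 0.0978). Counts per gene do not tell the SLC11A2 isoforms with and without an IRE apart.

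Further genes of iron entry and exit moved in CCL218. CYBRD1, a membrane ferric reductase, was at 3.07, 3.66 and 2.48 CPM in control and 6.81, 9.0 and 9.83 CPM in HCQ-evolved pools, a 2.78-fold rise (adjusted p = 0.0128). HEPH, the multicopper ferroxidase that works beside the iron exporter ferroportin, was at 8.04, 12.8 and 10.8 CPM in control and 57.2, 69.4 and 82.2 CPM in HCQ-evolved pools, a 6.57-fold rise (adjusted p = 0.00187). SLC39A8 (ZIP8), an importer of zinc, manganese and iron, fell from 27.6, 27.4 and 29.8 CPM to 11.8, 14.8 and 14.1 CPM, by 1.06 on the log2 scale (adjusted p = 0.00733). SLC11A2 and HEPH passed with any 1 pool left out. CYBRD1 did not pass without control R, HCQ-evolved M or HCQ-evolved R (adjusted p from 0.0650 to 0.0957), nor SLC39A8 without control R or any 1 HCQ-evolved pool (0.0504 to 0.0576), while the log2 fold changes stayed between 1.34 and 1.63 for CYBRD1 and between -1.11 and -0.96 for SLC39A8. In OVCAR3 none of CYBRD1, HEPH and SLC39A8 passed. CYBRD1 was at 1.70, 2.70 and 2.44 CPM in control and 3.88, 5.71 and 18.9 CPM in HCQ-evolved OVCAR3 (log2 fold change 2.08, adjusted p = 0.137). HEPH was at 7.81, 8.12 and 0.703 CPM in HCQ-evolved OVCAR3, again with R apart, against 4.74 to 7.22 CPM in control. SLC39A8 was at 39.4, 37.8 and 58.8 CPM in HCQ-evolved OVCAR3 against 35.6 to 41.7 CPM in control, and its change differed between the lines by -1.25 (95% interval -1.81 to -0.69), with an adjusted p just under the threshold that rounds to 0.05. The ferroportin gene SLC40A1, which has an IRE form in its 5′ UTR, did not pass in either line, at 101 to 123 CPM in control and 134 to 150 CPM in HCQ-evolved CCL218 (log2 fold change 0.33, adjusted p = 0.166). The intestinal markers CDH17, GPA33 and CEACAM5 moved with these genes in CCL218, from 2.43 to 4.87, 3.81 to 5.33 and 13.0 to 15.7 CPM in control pools to 44.9 to 57.4, 32.2 to 36.5 and 53.6 to 67.4 CPM in HCQ-evolved pools, while LGALS4 lay at 879 to 1369 and 730 to 833 CPM, and the part of a shift in intestinal identity in these changes was not tested.

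**Figure D5:**
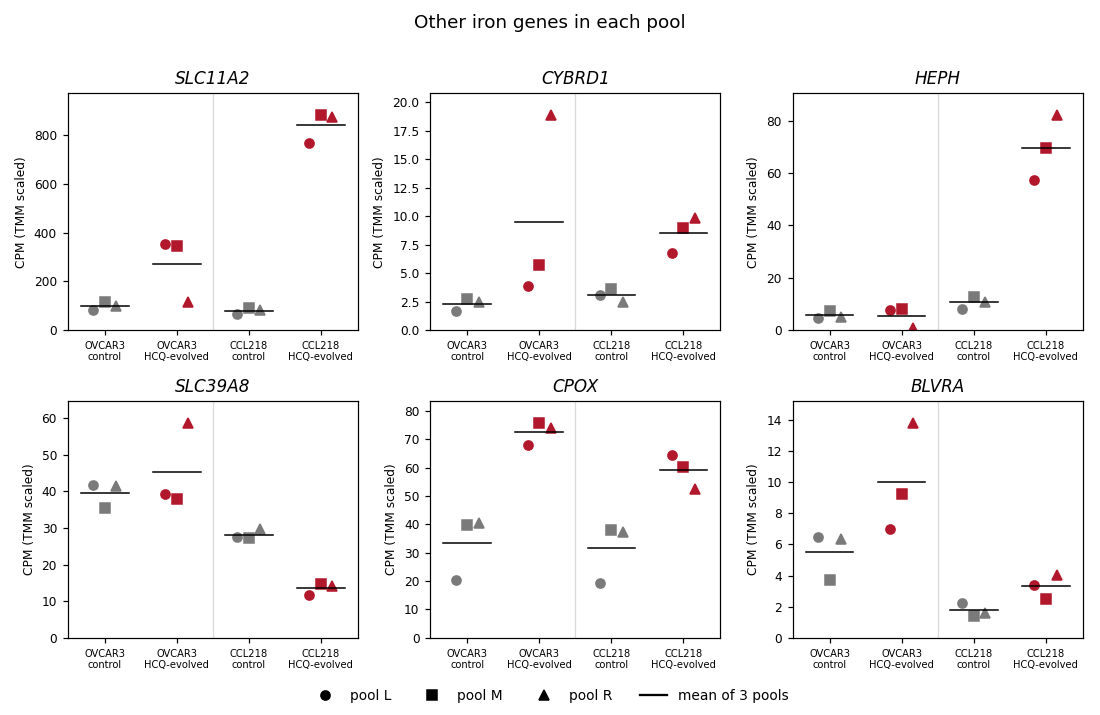
TMM-scaled CPM of 6 further iron genes in each of the 12 pools (circles L, squares M, triangles R, grey control, red HCQ-evolved), with a black line at the mean of 3 pools. HCQ-evolved CCL218 pools hold SLC11A2 at 768 to 883 CPM, and HCQ-evolved OVCAR3 R lies at 114 CPM, near the controls.

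In all, 3 of 15 tested transport genes rose and 1 fell in CCL218, where 3.82% of all genes rose and 2.64% fell. Because the lists were chosen with earlier results of these data known, the CCL218 counts are a description. Of the 17 heme genes tested there, 0 rose and 1 fell, SLC48A1 (HRG1), a heme transporter of the endolysosome, by 0.55 on the log2 scale (adjusted p = 0.0462). With 1 pool left out SLC48A1 passed without control L alone, and otherwise had adjusted p from 0.0745 to 0.235. Of the 5 delivery and chaperone genes and the 27 iron-sulfur cluster genes, 0 passed in either direction, with median log2 fold changes of 0.06 and -0.24, and 0 and 2 of them had an unadjusted p under 0.05. DESeq2 called 13 of the 68 other iron genes tested in CCL218, where edgeR called 5, and 16 passed with the position block, beside 17.7%, 6.46% and 14.2% of all genes. In OVCAR3 1 of the 69 tested passed, beside 1.86% of all genes. This was CP, ceruloplasmin, a secreted ferroxidase, at 1.83, 1.98 and 1.26 CPM in control and 0.0873, 0.0772 and 0.218 CPM in HCQ-evolved pools (log2 fold change -3.66 ± 0.47, adjusted p = 0.0174). CP passed the filter on low counts through the 3 control pools alone, so that only a fall could be seen and its values are a description, and without any 1 control pool it was no longer tested. It did not pass without HCQ-evolved L (adjusted p = 0.0615) or M (0.0658).

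Over both lines 6 of the 69 tested rose and 6 fell, CP included, which is near the 8.03% and 8.17% of all genes. Of these, SLC11A2, CYBRD1, CP and SLC48A1 were described above. CP again passed the filter through the 3 control OVCAR3 pools alone, so that only a fall could be seen and its values are a description here too. CPOX, an enzyme of heme synthesis, rose 2.01-fold (adjusted p = 0.00553), from 20.3 to 40.5 CPM in control to 67.8 to 75.8 CPM in HCQ-evolved OVCAR3, and from 19.4 to 38.0 CPM to 52.4 to 64.4 CPM in CCL218. BLVRA, the biliverdin reductase, rose 1.85-fold (adjusted p = 0.0167). ABCB10 (log2 fold change 0.69, adjusted p = 0.0254), a mitochondrial transporter linked to heme synthesis, and ABCG2 (0.60, adjusted p = 0.00984), an exporter of porphyrins and many drugs, also rose. MCOLN1, the lysosomal cation channel that can release iron, fell by 0.68 (adjusted p = 0.0116). SLC46A1, an importer of folate and heme, fell by 0.48 (adjusted p = 0.0489), UROS, an enzyme of heme synthesis, by 0.49 (adjusted p = 0.0337) and CIAO1, of cytosolic iron-sulfur cluster assembly, by 0.30 (adjusted p = 0.0494). With 1 of the 12 pools left out in turn, CIAO1 passed in 0 fits, SLC46A1 in 1, UROS in 3 and ABCB10 in 11. The other genes called, CP apart, passed in every such fit. HMOX2 was listed at 6 counts or fewer in all pools, as was its neighbour NMRAL1, and HMOX2 was not tested.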

How the data were processed

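Per the study's methods, STAR aligned the reads to hg38, RmDup took out duplicates, and the authors deposited whole-number counts per gene from featureCounts; versions and the strand setting are not given in the sources used here. Of the entries of 1 to 4 counts, 78.9% were even. Groups came from the sample titles, with 0 unmatched columns. The 10 members, the gene lists and the comparisons were chosen with earlier results of these data known. Genes with at least 1 CPM in 3 libraries were tested with edgeR 4.0.16 (quasi-likelihood, TMM) in R 4.3.3, per line and over all 12 libraries with a line term, with Benjamini-Hochberg adjustment over all genes tested and a threshold of 0.05. All members were named, and other iron genes were named where they passed in a line or over both. Alternatives used DESeq2 1.42.0, limma 3.58.1 voom, RLE factors, no filter, a position block, a spline of length and GC (5 degrees of freedom; 91.1% of symbols matched GENCODE 44) and each pool left out; the edgeR fits were tested on simulated data. Every member but TF had at least 215 counts in each pool. Position was taken as pairing in CCL218 but not in OVCAR3. Across genes, after group means were removed, same-position pools correlated at 0.537, 0.261 and 0.225 for L, M and R in CCL218. In OVCAR3 the values were 0.410, -0.680 and -0.489. The HCQ-evolved pool that correlated best was at the same position for control L and R of CCL218, not for M. In OVCAR3 this held for control L alone.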

Additional observations from a re-analysis of the deposited data

Results flagged for a closer look

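The change in SLC39A8 differed between the lines by a test of the difference itself. The log2 fold change in CCL218 minus that in OVCAR3 was -1.25 (SE 0.26), with an adjusted p that rounds to 0.05. The gene fell in all 3 HCQ-evolved CCL218 pools, and in OVCAR3 the 2 groups overlapped. The adjusted p ran from 0.000442 to 0.160 over 20 alternatives, of which 5 passed, and the difference lay between -1.02 and -1.37. With 1 pool left out in turn, 2 of 12 fits passed.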

How the results depend on the processing

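Of the 69 single-gene results, 971 alternative values kept direction and side of the threshold, 57 passed where the reported one had not, 92 failed where it had passed and 27 changed sign. The number of members called stayed at 0 in OVCAR3, between the lines and between controls under every alternative run. In CCL218, where it was 1, it was 2 by DESeq2, 2 with the replicate block, 3 without both L pools (chosen after seeing the data) and 0 to 2 with 1 pool left out. Of all genes there, 17.7% passed by DESeq2 and 14.2% with the block, beside 6.46% in the reported fit. Without both L pools 1863 of 11955 genes were called higher and 1814 lower. With 1 pool left out this ran from 72 higher and 30 lower (HCQ-evolved M) to 1646 and 1401 (control L). Over both lines the number of members called, 2 in the reported fit, was 1 with the replicate block and 0 with the length and GC trend removed together with the block. It was 3 by DESeq2, 3 by limma voom, and 1 to 3 with 1 pool left out. Of 12613 genes, the reported fit called 1013 higher and 1031 lower, and the block 597 and 586. Trend and block together called 1234 higher and 1146 lower, DESeq2 1455 and 1544, and limma voom 1084 and 1003. The other iron genes called in OVCAR3, where it was 1, were 5 in 1 fit of all libraries, 5 by DESeq2, 3 with the length and GC trend removed, 2 with the block too, 2 with no filter, 0 without both L pools and 0 to 2 with 1 pool left out. In CCL218, where it was 5, they were 13 by DESeq2, 15 with the trend removed, 15 with the block too, 16 with the block alone, 27 without both L pools and 2 to 18 with 1 pool left out. Over both lines, where it was 12, they were 19 with the trend removed, 17 with the block too and 16 by DESeq2. They were 11 by limma voom, and 9 each with the block alone, with no filter and without control L of both lines. With 1 pool left out they were 8 to 12. The calls over all genes shifted with the fit as well. In OVCAR3 the reported fit called 79 genes higher and 148 lower, DESeq2 542 and 563, and the fit without both L pools 0 and 0. With the trend removed, 562 were called higher and 483 lower in OVCAR3, 1255 and 1064 in CCL218, and 1713 and 1734 over both lines. The counts of iron genes are therefore a description and no result of their own. Position was taken as pairing the pools in CCL218, not in OVCAR3.

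The sign changes were all of results that had not passed. In CCL218 FTH1 was 0.0193 with no filter, 0.0842 with the trend removed, 0.0927 with the block too and -0.129 to 0.091 with 1 pool left out, and FTL was 0.161 with the trend removed, 0.163 with the block too, 0.0285 without both L pools and -0.185 to 0.132 with 1 pool left out. With 1 pool left out, FTL ran from -0.0685 to 0.435 in OVCAR3 and from -0.0779 to 0.156 over both lines. NCOA4 ran from -0.300 to 0.0392 in OVCAR3 and, over both lines, was -0.0252 with the trend removed, -0.0196 with the block too, -0.119 without control L of both lines and -0.0601 to 0.135 with 1 pool left out. In OVCAR3 HEPH was 0.0879 with the trend removed and -0.408 to 0.488 with 1 pool left out, and SLC39A8 was -0.0289 to 0.344. CP could not be tested without any 1 control OVCAR3 pool. Of the members, TF alone was too low to test, as were 9 other iron genes in OVCAR3 and 10 in CCL218.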
